A study of Mus musculus with 47 samples.

Results

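Cortex taken in the middle of the dark phase (ZT18) was compared with cortex taken in the middle of the light phase (ZT6) in mice on control chow, across all genes. Zeitgeber time (ZT) counts hours from lights on, so that ZT12 is lights off and the mice of both groups were killed 12 h apart. The libraries were chosen by their labels alone, control diet and ZT, which gave 4 mice at ZT18 and 4 at ZT6, or 8 of the 47 libraries of the series. All were male C57BL/6J mice of about 3 months with no transgene, kept under 12 h of light and 12 h of darkness, and had eaten control chow without drug for 10 days. Each library came from the microdissected cortex of 1 mouse. The mice lived 4 to a cage, and whether those of one ZT shared a cage is not given in the sources used here. The remaining libraries were 15 control mice at 4 other ZTs and 24 mice on chow with 1200 ppm PLX5622, an inhibitor of CSF1R, the receptor that microglia need to survive. The study asks how microglial loss bears on daily rhythms of the cortex. The comparison within control chow gives the day to night difference of the untreated tissue.

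Mice are night-active, so ZT18 falls in the active phase and ZT6 in the phase of most sleep. The molecular clock that runs in nearly every cell is a loop in which CLOCK and BMAL1 (gene Arntl) switch on the Per and Cry genes through E-box elements, and PER and CRY proteins then switch CLOCK and BMAL1 off. REV-ERB proteins (Nr1d1, Nr1d2) and ROR proteins set the level of Arntl, and DBP, TEF, HLF and NFIL3 carry the rhythm to other genes. On top of the clock, cortical RNA follows waking itself. Immediate early genes such as Arc and Fos respond to neuronal firing, chaperone genes are known to rise with time awake, and glucocorticoids, which peak before the active phase in mice, act on genes such as Tsc22d3 and Fkbp5.

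The 8 libraries held 16597987 to 20524980 counts each, and 7.09% to 9.73% of them were mitochondrial. Neither total counts (exact permutation test over 70 splits, two-sided p = 0.486) nor the mitochondrial share (p = 0.886) differed between ZT18 and ZT6 beyond the spread between mice, and the smallest p this design allows is 0.0286. Genes that mark the cortex were present in all 8 libraries. The level of 8 markers of excitatory cortical neurons, as the mean of log2(CPM + 1) with CPM the count as a share of the scaled library total, was 6.10 to 6.67 at ZT18 and 6.15 to 6.64 at ZT6. Mouse 3 at ZT6 stood apart in tissue markers. Its level of 6 striatal markers was 4.79, against 5.30 to 6.42 in the other 7 mice, and that of 6 hypothalamic markers was 2.76, against 0.80 to 1.76. Results are therefore also given without this mouse. The tissue was not sorted, so fewer cells of a type and less RNA per cell cannot be told apart.

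Of 17443 genes tested, 64 passed an adjusted p of 0.05 (0.367%), 40 of them higher at ZT18 (0.229%) and 24 lower (0.138%). Most differences were small. The median change among the 40 higher genes was 1.45-fold, and that among the 24 lower genes was 1.51-fold, with 4 higher and 6 lower genes past 2-fold. The median log2 fold change of all genes was 0.0017. The values of the 4 mice at ZT18 lay entirely above those of the 4 mice at ZT6 for 38 of the 40 higher genes, and entirely below for 24 of the 24 lower genes. Over all genes tested, 3.37% separated in this way upwards and 2.9% downwards. Of the genes tested, 4.64% were higher and 4.86% lower at an unadjusted p under 0.05. The annotated bodies of 33 of the 64 genes overlap another gene, and with no strand setting known their reads cannot be told apart there.

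The number of calls rested on single mice. All 64 genes kept their direction whichever of the 8 libraries was left out. The groups did not overlap for 38 of the 40 higher and 24 of the 24 lower genes. Their direction was therefore largely fixed in advance, and keeping it is no test. The calls numbered 5 without mouse 2 at ZT18, 6 without mouse 2 at ZT6, 15 without mouse 3 at ZT18, 18 without mouse 4 at ZT6 and 29 without mouse 4 at ZT18. Without mouse 3 at ZT6 they numbered 16, of which 14 were among the 64, namely Per2, Cry1, Nr1d1, Zbtb40, Maml3, Kirrel2, Tsc22d3, Mfsd2a, Manf, Sgsm1, Sfpq, Insig1, Mvd and Muc15. Leaving out mouse 1 at ZT6 or at ZT18 left 47 and 59 calls. Per2, Cry1, Zbtb40 and Insig1 were called in all 8 of these fits. Upper-quartile scaling gave 21 higher and 26 lower calls, in place of 40 and 24. In the test on TPM (length-normalised transcript abundance), the median log2 fold change of all genes was -0.06. That test gave 8 lower calls and 0 higher ones. In it, 37 of the 39 higher genes tested and 20 of the 22 lower genes kept their direction at an unadjusted p under 0.05.

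**Figure D1:**
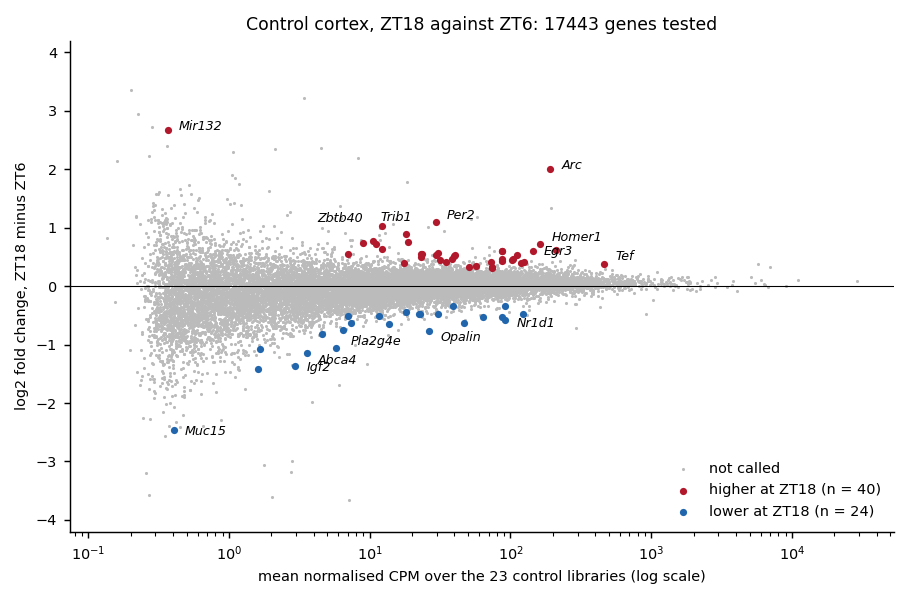
Each point is 1 of the 17443 genes tested, with its mean normalised CPM over the 23 control libraries (log scale) against its log2 fold change, ZT18 minus ZT6, and 2 genes lie beyond the axis limits. The 40 red genes were called higher and the 24 blue genes lower at ZT18, and most lie within 1 log2 unit of 0.

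Among the clock genes, 3 repressors and 2 output factors were called. Per2 (chr1:91415982-91459324, minus strand, GRCm38), which encodes a repressor of CLOCK and BMAL1, had the smallest p of all genes. Its normalised CPM was 29.7, 38.5, 39.3 and 34.7 in the 4 mice at ZT18 and 20.03, 14.6, 18.3 and 13.8 in the 4 mice at ZT6. Every mouse at ZT18 was above every mouse at ZT6, and the rise was 2.13-fold (log2 fold change 1.09 ± 0.11 SE, adjusted p = 1.8e-05). Cry1, the partner of PER2 in that repression, was 25.9, 27.8, 24.1 and 23.1 CPM at ZT18 and 17.0, 17.4, 16.2 and 18.6 CPM at ZT6. It rose by 0.55 ± 0.08 (log2, SE, adjusted p = 0.00372). The groups did not overlap for either gene. Nr1d1 encodes REV-ERBα, which represses Arntl, and went the other way. It was 71.3, 81.8, 71.4 and 68.1 CPM at ZT18 and 103, 105, 100.1 and 126 CPM at ZT6, a log2 fold change of -0.57 ± 0.11 (SE, adjusted p = 0.0173).

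Among the output factors, Tef and Nfil3 rose. TEF and NFIL3 bind the same DNA element, as activator and repressor respectively. Tef was 513, 538, 552 and 472 CPM at ZT18 against 438, 410, 353 and 396 CPM at ZT6 (log2 fold change 0.38 ± 0.08 SE, adjusted p = 0.03). Nfil3 was 8.52, 7.24, 8.86 and 9.003 CPM at ZT18 against 6.17, 4.72, 5.98 and 6.15 CPM at ZT6 (0.55 ± 0.12, adjusted p = 0.0466). Both genes had separate groups. Nfil3 was called in none of the 8 fits that left out a library, and Tef in 2. In the list of clock repressors 2 of 10 genes were thus called higher and 1 lower, and in the list of output factors 2 of 5 were called higher.

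The other clock genes did not pass. Per1 was 71.8 ± 12.6 CPM (SD, n = 4) at ZT18 and 58.0 ± 8.83 at ZT6 (log2 fold change 0.31, adjusted p = 0.415), and its 2 groups overlapped. Per3 (0.26, adjusted p = 0.494) and Hlf (0.28, adjusted p = 0.357) had positive values of like size. Dbp, usually among the genes of widest daily swing, was 71.8 ± 5.55 CPM at ZT18 and 71.7 ± 5.23 at ZT6, a log2 fold change of 0.0026. Among the other repressors and outputs, Cry2 (0.14), Bhlhe40 (0.20), Nr1d2 (0.09), Ciart (0.09), Bhlhe41 (-0.01) and Usp2 (-0.08) had adjusted p values from 0.583 to 0.979. None of the 6 activators and RORs was called, with log2 fold changes of -0.14 for Arntl, -0.06 for Clock, 0.15 for Npas2, -0.15 for Rora and -0.05 for Rorb among them. Of the kinases and F-box proteins that set the stability of PER and CRY, 0 of 4 were called. Csnk1d (0.08) and Csnk1e (0.11) were near 0, and Fbxl21 was at -0.44 (adjusted p = 0.385).

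The level of these genes at all 6 ZTs of the control diet shows what a pair of times 12 h apart can and cannot see. Dbp had the same mean at ZT6 and ZT18 on either side of a peak of 109 ± 7.47 CPM at ZT10 and 110 ± 10.9 CPM at ZT14. Its lowest means were 48.1 ± 4.85 at ZT2 and 47.7 ± 7.92 at ZT22. Ciart followed the same course, with 15.2 and 16.1 CPM at ZT10 and ZT14 against 7.79 and 8.32 at ZT6 and ZT18. Arntl ran the other way, from 30.5 ± 3.29 CPM at ZT2 to 16.8 ± 1.27 at ZT14, with values between these at ZT6 (24.3) and ZT18 (22.1). Per1 peaked at ZT14 with 126 ± 9.44 CPM. Per2 was lowest at ZT6 (16.7 ± 2.99) and highest at ZT14 (50.6 ± 2.17), 1 sampling time before ZT18. The mean of Nr1d1 was 109, 113 and 123 CPM from ZT6 to ZT14 and then 73.1 CPM at ZT18 and 63.2 CPM at ZT22. The course means rest on 4 mice per ZT, with 3 at ZT14.

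**Figure D2:**
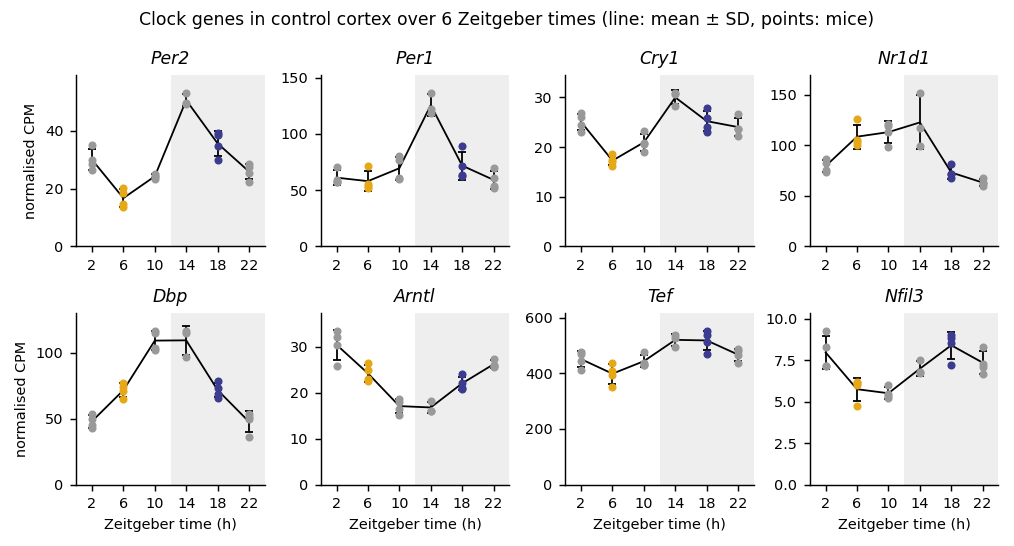
Normalised CPM of 8 clock genes in control cortex against Zeitgeber time in hours, with 1 point per mouse, lines at the mean ± SD, the dark phase in grey, ZT6 in yellow and ZT18 in blue. Per2 and Cry1 are lowest at ZT6, whereas Dbp has means of 71.7 and 71.8 CPM at ZT6 and ZT18 on either side of its peak.

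The promoters of Cry1, Tef, Nfil3 and Nr1d1 were read for the E-box through which CLOCK and BMAL1 act (CACGTG, the same on both strands). The windows are the 250 bases before the RefSeq start, on GRCm38.p6, with the E-box in capitals. Only the windows that hold an E-box are shown, and its part in the changes was not tested. No window was at hand for Per2, Arc, Egr3 and Trib1. The letters are in 6.03% of 32544 windows of this length. The Cry1 window lies at chr10:85185055-85185304 on the minus strand and its E-box begins 60 bases before the start. The 2 Tef windows belong to 2 start sites, at chr15:81802423-81802672 and chr15:81811164-81811413 on the plus strand, with E-boxes 127 and 138 bases before the start.
Cry1: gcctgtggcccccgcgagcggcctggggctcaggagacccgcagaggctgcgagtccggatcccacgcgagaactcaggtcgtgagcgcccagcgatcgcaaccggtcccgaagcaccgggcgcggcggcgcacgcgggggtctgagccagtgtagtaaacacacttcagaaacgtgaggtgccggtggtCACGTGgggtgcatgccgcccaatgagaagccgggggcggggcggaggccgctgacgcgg
Tef, first start: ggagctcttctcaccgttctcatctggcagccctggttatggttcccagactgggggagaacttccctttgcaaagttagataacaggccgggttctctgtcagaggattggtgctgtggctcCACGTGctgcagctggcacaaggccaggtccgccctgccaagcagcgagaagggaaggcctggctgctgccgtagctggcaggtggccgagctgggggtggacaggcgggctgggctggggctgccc
Tef, second start: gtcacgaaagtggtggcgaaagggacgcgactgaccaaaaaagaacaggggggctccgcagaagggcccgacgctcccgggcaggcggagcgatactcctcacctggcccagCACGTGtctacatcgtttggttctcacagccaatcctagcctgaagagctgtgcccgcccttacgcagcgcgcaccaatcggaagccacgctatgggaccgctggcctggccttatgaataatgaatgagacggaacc
A match of 6 letters describes the window and says nothing of binding in these cells. The D-box (TTATGTAA or TTATGCAA) and the cAMP response element (TGACGTCA), on both strands, were in none of these 3 windows, and the Nfil3 window held none of the motifs. The Nr1d1 window held none either and was set aside, since it did not match a transcript start of that gene on its strand.

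Of the genes of neuronal activity, few passed the test. The list of 25 immediate early genes had 3 called higher at ZT18 and none lower, and 25 of 25 had a positive log2 fold change, with a median of 0.79 against 0.0017 over all genes, while in the TPM 22 of 24 were positive. At an unadjusted p under 0.05, 16 were higher and none lower. Arc (chr15:74669083-74672570, minus strand), whose RNA travels to active synapses, had the largest rise of the 3. It was 236, 391, 299 and 371 CPM at ZT18 and 107, 52.7, 40.2 and 123 CPM at ZT6 (4.02-fold, log2 fold change 2.01 ± 0.45 SE, adjusted p = 0.049). Every mouse at ZT18 was above every mouse at ZT6, and the mice within each ZT varied widely. The call was lost whichever library was left out. Egr3, a transcription factor of the same response, was 164, 240, 193 and 170 CPM at ZT18 and 135, 113, 113 and 145 CPM at ZT6 (0.60 ± 0.13, adjusted p = 0.0438). Trib1, a pseudokinase that steers protein degradation, was 19.8, 26.9, 20.8 and 25.4 CPM at ZT18 and 13.5, 11.6, 8.74 and 15.8 CPM at ZT6 (0.90 ± 0.16, adjusted p = 0.017). Neither gene's groups overlapped.

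The classical members did not pass in spite of large differences. Fos was 24.2, 40.5, 25.4 and 35.5 CPM at ZT18 and 11.1, 2.31, 4.85 and 18.2 CPM at ZT6 (log2 fold change 1.79 ± 0.72 SE, adjusted p = 0.393). Egr1 was 276 ± 59.0 CPM (SD, n = 4) at ZT18 and 109 ± 47.4 at ZT6 (1.34, adjusted p = 0.122), Egr2 was at 2.37 (adjusted p = 0.217) and Junb at 1.15 (adjusted p = 0.367). For these 4 genes the mice at ZT18 lay above those at ZT6 without overlap. At ZT6, mice 1 and 4 were both above mice 2 and 3 for Arc, Egr3, Fos, Egr1, Junb and 10 more of the 25 genes. Npas4 at ZT6 was 25.4 CPM in mouse 4 against 3.45 to 4.29 in the other 3, and its groups overlapped. Among control mice, replicate number 4 was also highest for Npas4 at ZT2 (26.06 CPM against 5.777 to 8.325) and ZT10 (42.32 against 2.989 to 3.945). That number was highest for Npas4 at ZT18 and ZT22 too. What the replicate number stands for was not tested. Nr4a1 (1.19, adjusted p = 0.0521) and Sik1 (0.79, adjusted p = 0.0508) fell just short of the threshold.

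The list of 19 delayed activity-regulated genes had 1 called higher and none lower, with a median log2 fold change of 0.28, or 0.15 in the TPM. Homer1 encodes a scaffold of the postsynaptic density, and its short activity-induced form competes with the long ones. The gene's counts do not tell the forms apart. It was 164, 273, 230 and 182 CPM at ZT18 and 141, 123, 120 and 133 CPM at ZT6 (0.72 ± 0.13, adjusted p = 0.0169), with the groups apart. Arl4d, at 1.14 ± 0.26, had an adjusted p of 0.0521.

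Mir132 had the largest log2 fold change of the called genes, but on few reads. The annotated hairpin (chr11:75173682-75173747, plus strand, GRCm38) held 21, 6, 22 and 17 counts at ZT18 and 7, 1, 1 and 1 at ZT6. The sums of 66 and 10 give a ratio of 6.37 (95% exact interval 3.25 to 13.9, counting error only), and mouse 2 at ZT18 was below mouse 1 at ZT6. The fitted value was 2.67 ± 0.59 (SE, adjusted p = 0.0438), and it was called in 1 of the 8 fits without a library. Mir212, the neighbouring hairpin, held 25, 19, 16 and 15 counts at ZT18 and 13, 5, 11 and 6 at ZT6, a ratio of 2.07 (1.37 to 3.18). Both hairpins lie in a precursor that is known to be induced by neuronal activity through CREB. Libraries of long fragments count the precursor and not the mature miRNA, and the TPM table lists Mir132 at 0 in these mice. The main mature products are shown, from RefSeq on GRCm38.p6, because they share the seed (bases 2 to 8, in capitals), so that a change in either would act on largely the same targets.
mmu-miR-132-3p: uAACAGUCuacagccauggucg
mmu-miR-212-3p: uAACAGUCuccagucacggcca

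**Figure D3:**
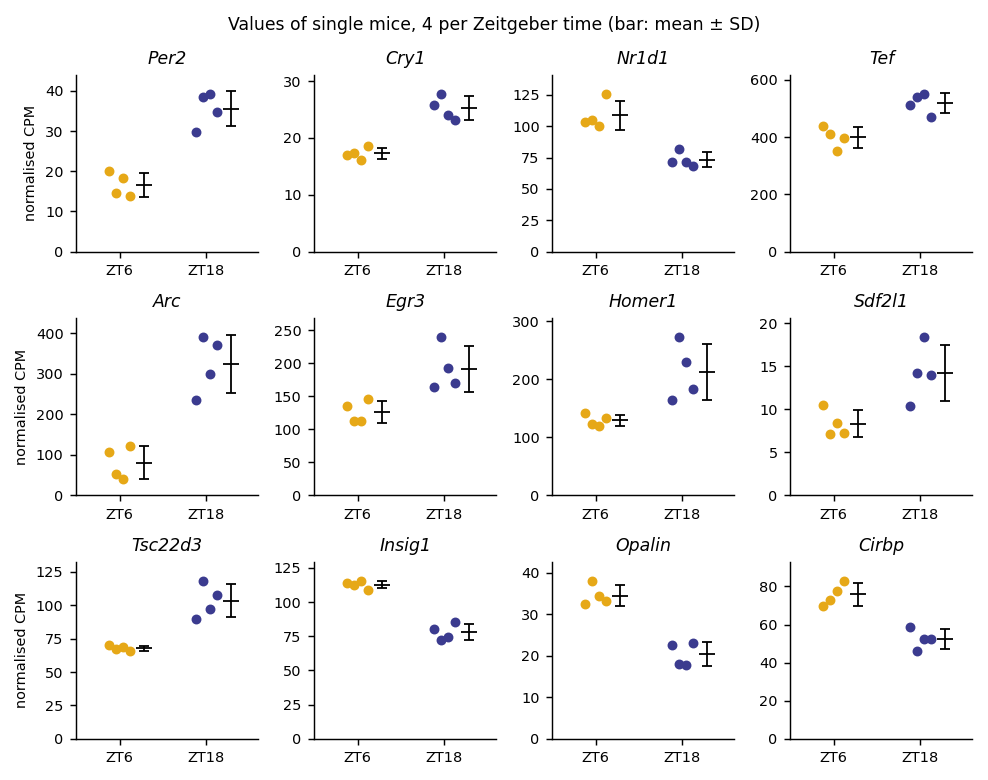
Normalised CPM of 12 genes in single mice at ZT6 (yellow) and ZT18 (blue), with the mean ± SD of 4 mice as a bar beside the points, and every axis from 0. The points of both times are separate for all genes shown but Sdf2l1, where the lowest mouse at ZT18 (10.4 CPM) is below the highest at ZT6 (10.5 CPM).

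Of the chaperones of the endoplasmic reticulum (ER), 3 rose. Of 20 genes of the ER chaperone and unfolded protein response list, 3 were called higher and none lower, 20 had a positive log2 fold change with a median of 0.26, and 11 were higher at an unadjusted p under 0.05. Upper-quartile scaling left 18 positive, and the TPM left 16, with a median of 0.15. Manf, a chaperone-binding factor that cells secrete under ER stress, was 44.0, 49.9, 58.4 and 46.1 CPM at ZT18 and 35.5, 29.9, 34.8 and 36.3 CPM at ZT6 (0.54 ± 0.10 SE, adjusted p = 0.0168). Pdia4, an enzyme that forms disulfide bonds, was 27.1, 35.8, 36.4 and 33.2 CPM against 21.2, 22.03, 22.6 and 25.0 CPM (0.54 ± 0.12, adjusted p = 0.0435). Sdf2l1, a partner of the chaperone BiP, was 10.4, 14.3, 18.4 and 13.95 CPM against 10.5, 7.14, 8.41 and 7.27 CPM (0.77 ± 0.17, adjusted p = 0.0412). For Manf and Pdia4 the groups were apart, and for Sdf2l1 mouse 1 at ZT18 lay within the ZT6 range. That mouse had the lowest value of the 4 in 17 of the 20 genes. Hspa5, the gene of BiP itself, was 237 ± 36.7 CPM (SD, n = 4) and 157 ± 30.4 CPM (0.60 ± 0.14 SE, adjusted p = 0.0709). Xbp1 (0.49, adjusted p = 0.0714), Atf4 (0.28, adjusted p = 0.0944) and Calr (0.32, adjusted p = 0.419) also had positive values that did not pass.

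Of the 21 cytosolic heat-shock chaperones, 1 was called higher and none lower, with 20 positive values and a median of 0.23. In the TPM 18 were positive and the median was 0.14. Cryab, a small heat-shock protein abundant in glia, was 145, 140, 148 and 133 CPM at ZT18 and 107, 112, 114 and 98.7 CPM at ZT6 (0.39 ± 0.09, adjusted p = 0.0438). The groups were apart, but the call was lost in each of the 8 fits without a library. Its annotated body overlaps that of Hspb2. Hspa1b (0.79, adjusted p = 0.136) and Dnajb1 (0.50, adjusted p = 0.152), both strongly heat-inducible, did not pass.

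Cirbp went against the chaperones. It encodes the cold-inducible RNA-binding protein, which rises when body temperature falls, as it does in the resting phase of a mouse. It was 58.6, 46.0, 52.4 and 52.4 CPM at ZT18 and 69.6, 72.9, 77.9 and 83.1 CPM at ZT6 (-0.53 ± 0.10, adjusted p = 0.0187). Every mouse at ZT18 was below every mouse at ZT6. Over the control day Cirbp peaked at ZT10 with 96.5 ± 13.4 CPM and was lowest at ZT2 with 45.6 ± 1.98 CPM. Rbm3, the other cold-inducible gene of this kind, was 85.7 ± 2.96 CPM at ZT18 and 79.5 ± 3.06 at ZT6 (0.11 ± 0.10, adjusted p = 0.795), and its TPM gave -0.03. It too was highest at ZT10, with 103 ± 9.73 CPM. Body temperature was not among the data analysed. A pair of RNA-binding proteins of the splicing machinery outside the lists were called in opposite directions, Hnrnpdl lower (-0.47 ± 0.09, adjusted p = 0.0193) and Sfpq higher (0.46 ± 0.09, adjusted p = 0.0228). None of the 16 SR splicing factors and CLK kinases was called, with Srsf5 at -0.50 (adjusted p = 0.379) and Srsf3 at 0.22 (adjusted p = 0.339).

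Genes that respond to glucocorticoids had 2 of 22 called higher and none lower, with 20 positive values and a median of 0.19. Upper-quartile scaling left 17 positive, and the median in the TPM was 0.10. Tsc22d3 (GILZ), an anti-inflammatory factor that the glucocorticoid receptor switches on directly, was 90.0, 119, 97.2 and 108 CPM at ZT18 and 70.1, 67.3, 68.5 and 65.7 CPM at ZT6. The mice at ZT6 were nearly identical, and the rise was 1.52-fold (0.61 ± 0.11, adjusted p = 0.0168). Ddit4 (REDD1), an inhibitor of mTORC1, was 47.3, 46.3, 48.2 and 56.2 CPM against 36.6, 28.9, 35.5 and 38.0 CPM (0.51 ± 0.10, adjusted p = 0.0235). Sgk1 (0.65, adjusted p = 0.0596) and Plin4 (1.16, adjusted p = 0.0817) were short of the threshold, and Fkbp5 was at 0.21 (adjusted p = 0.272) with its groups apart. Corticosterone was not among the data analysed.

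Cholesterol genes had mostly negative values. Of 24 genes of synthesis and uptake, 2 were called lower and none higher, 22 had a negative log2 fold change with a median of -0.22, and 12 were lower at an unadjusted p under 0.05. Insig1 (chr5:28071363-28078662, plus strand) encodes the ER protein that holds back the sterol sensor, and is itself a target of SREBP2. It was 80.3, 72.4, 74.3 and 85.4 CPM at ZT18 and 114, 113, 116 and 109 CPM at ZT6 (-0.53 ± 0.08, adjusted p = 0.00334). Every mouse at ZT18 was below every mouse at ZT6, and the 4 mice at ZT6 were close together. Mvd, the decarboxylase of the mevalonate pathway, was 19.5, 19.3, 18.7 and 20.7 CPM at ZT18 and 30.0, 23.7, 26.1 and 28.9 CPM at ZT6 (-0.48 ± 0.09, adjusted p = 0.0187). Both genes had their highest mean of the 6 ZTs at ZT6, as did 14 of the 24. Hmgcs1 (-0.26, adjusted p = 0.292), Lss (-0.35, adjusted p = 0.267) and Stard4 (-0.36, adjusted p = 0.071) also had negative values that did not pass.

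**Figure D4:**
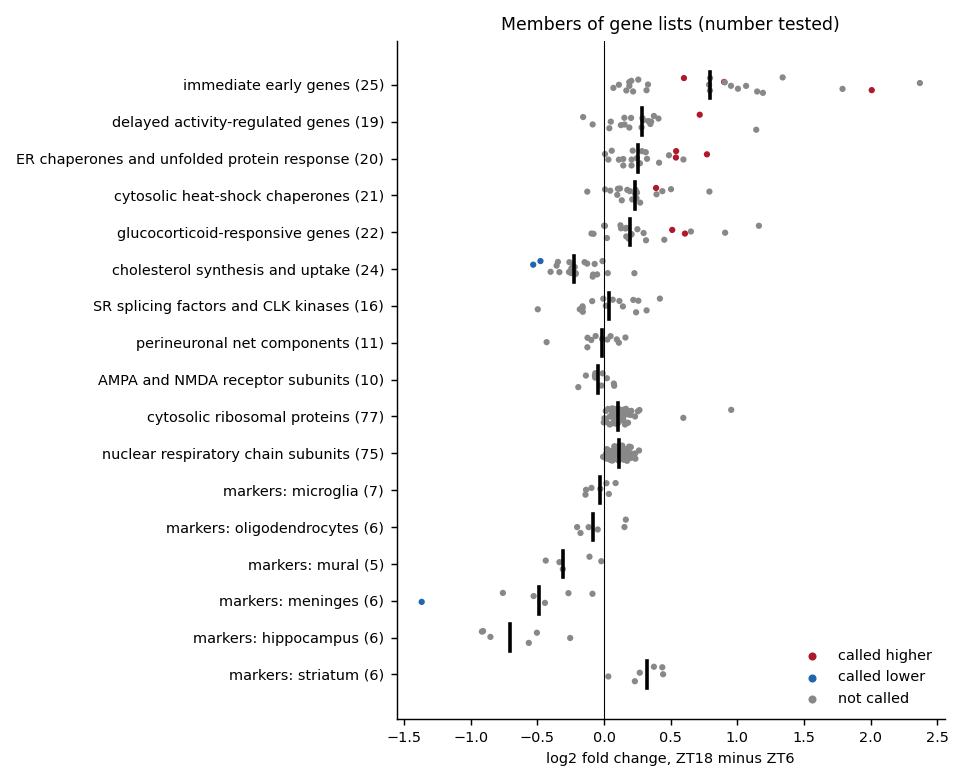
Log2 fold change, ZT18 minus ZT6, of every tested member of 17 gene lists, with the number tested in brackets, the list's median as a black bar and called genes in red (higher) and blue (lower). All 25 immediate early genes and 20 ER chaperones lie above 0 (in the TPM, 22 of 24 and 16 of 20 do), and 22 of 24 cholesterol genes lie below it.

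Some lower genes chosen after their values were seen are known from glia, vessels or meninges. Other called genes of glia and vessels, Cryab and Mfsd2a, were higher at ZT18. Opalin and Pllp encode membrane proteins of myelin. Opalin was 22.5, 17.96, 17.8 and 23.1 CPM at ZT18 and 32.4, 38.1, 34.4 and 33.1 CPM at ZT6 (-0.76 ± 0.15, adjusted p = 0.0193), and Pllp was 9.98 ± 1.09 CPM (SD, n = 4) and 15.6 ± 0.879 CPM (-0.64 ± 0.13, adjusted p = 0.0217). The groups were apart for both. The 6 oligodendrocyte markers had no call, a median of -0.08 and levels of 9.03 to 9.30 at ZT18 and 9.10 to 9.32 at ZT6. Of the 6, 4 were negative, Cnp lay entirely lower at ZT18 (-0.18, adjusted p = 0.587), and the median in the TPM was -0.19. The part of these markers in the calls was not tested.

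Igf2, a growth factor of the meninges and vessels, was 1.40, 1.31, 1.45 and 1.83 CPM at ZT18 and 4.02, 3.52, 4.40 and 3.55 CPM at ZT6 (-1.37 ± 0.29, adjusted p = 0.0412). The count call rests on few reads, in a gene whose body overlaps Igf2os and Gm49394, and the mean TPM of 31.3 and 46.8 gave -0.58 (adjusted p = 0.46). Col4a1, a collagen of the vessel wall, was 24.3 ± 2.51 CPM (SD, n = 4) and 33.6 ± 2.73 CPM (-0.47 ± 0.09, adjusted p = 0.0226). Arhgap29 (-0.48 ± 0.10, adjusted p = 0.0226), a regulator of small GTPases in endothelium, and Tfrc (-0.34 ± 0.07, adjusted p = 0.0299), the transferrin receptor that vessels and neurons use to take up iron, were also lower.

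Many markers of vessels and of tissue beside the cortex also had negative values, and others had positive ones. All 6 meningeal markers, 5 mural markers, 6 choroid plexus markers and 6 hippocampal markers had negative log2 fold changes, with medians of -0.49, -0.31, -0.25 and -0.71. Of these 23 genes 1 was called, Igf2. The level of the meningeal list was 2.68 to 3.19 at ZT18 and 3.12 to 3.60 at ZT6, and that of the mural list 4.65 to 4.95 and 4.88 to 5.05. The hippocampal list was apart, at 2.17 to 2.78 and 2.98 to 3.35, with Prox1 at -0.50 and C1ql2 at -0.92 (adjusted p = 0.353 and 0.561). Of the endothelial markers, 4 of 5 were negative, with Cldn5 at -0.35 (adjusted p = 0.105). Ly6c1 was at 0.33, and every mouse at ZT18 was above every mouse at ZT6. Vtn of the mural list was at -0.33 (adjusted p = 0.338). The choroid plexus list ran from 2.38 to 4.37 at ZT18 and 3.45 to 4.08 at ZT6. All 6 striatal markers were positive, with a median of 0.32, and 5 of 6 hypothalamic markers were negative, with Pmch at 14.3 CPM in mouse 3 at ZT6 and 0.113 to 2.21 in the other 3 mice of that time. Most of these signs did not recur in PLX5622 mice at the same 2 ZTs. There 5 of 6 hippocampal and 1 of 6 striatal markers were positive, with medians of 0.26 and -0.07. Of the meningeal, mural and endothelial markers 3, 2 and 4 were positive there, with medians of -0.05, -0.04 and 0.09. All 6 choroid plexus markers were again negative, with a median of -0.25. The part of these markers in the calls of Igf2, Col4a1 and the other lower genes was not tested. Without mouse 3 at ZT6, Igf2 was at -1.30 (adjusted p = 0.114), Col4a1 at -0.44 (adjusted p = 0.0933), Arhgap29 at -0.46 (adjusted p = 0.0822) and Opalin at -0.76 (adjusted p = 0.0566), none of them called.

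The remaining genes of large change were a mixed group. Zbtb40 (chr4:136979732-137048801, minus strand), a zinc-finger factor of little-known function in brain, was 15.1, 18.1, 17.2 and 13.0 CPM at ZT18 and 7.19, 7.75, 6.09 and 9.98 CPM at ZT6. It rose 2.04-fold (1.03 ± 0.15, adjusted p = 0.00334) and had its lowest mean of the day at ZT6, like Per2 and Cry1. Kirrel2 (0.75 ± 0.13, adjusted p = 0.015), an adhesion protein, Cys1 (0.74 ± 0.17, adjusted p = 0.0495), a protein of cilia, and Maml3 (0.73 ± 0.12, adjusted p = 0.015), a coactivator of Notch, also rose. So did Mkks (0.64 ± 0.14, adjusted p = 0.0417), a chaperonin-like protein of the ciliary base, and Tmem151b (0.63 ± 0.13, adjusted p = 0.03). Hrh3, the histamine receptor that restrains histamine release, was 95.7, 105, 109 and 100.4 CPM at ZT18 and 77.9, 61.8, 56.2 and 73.9 CPM at ZT6, with the groups apart (0.60 ± 0.12, adjusted p = 0.0193). Mfsd2a, the lysolipid transporter of the blood-brain barrier, rose by 0.56 ± 0.10 (adjusted p = 0.0168).

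The other 16 higher genes had log2 fold changes from 0.31 (Tmcc1) to 0.56 (Sh3rf3). Between them, from the largest change down, were Samd4b, Sdk2, Ankrd6, Sgsm1, Fmnl1, Rasl10a, Rps6ka2, Zdhhc14, Slc36a1, Ccdc85b, Cdk2ap2, Hexim1, Chtf8 and Sh3bp5l. Slc36a1 is a lysosomal amino acid transporter that feeds mTORC1, Rps6ka2 a kinase downstream of ERK, and Hexim1 an inhibitor of transcription elongation.

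Among the lower genes, Abca4, a lipid transporter, was 1.99, 1.31, 3.83 and 1.95 CPM at ZT18 and 4.13, 4.50, 5.59 and 5.69 CPM at ZT6 (-1.14 ± 0.24, adjusted p = 0.0374). Pla2g4e, which makes precursors of endocannabinoid-like lipids, was 3.99, 2.62, 3.96 and 3.89 CPM at ZT18 and 6.51, 7.64, 7.45 and 8.68 CPM at ZT6 (-1.06 ± 0.20, adjusted p = 0.0187). The groups were apart for both, although mouse 3 at ZT18 came close to the lowest ZT6 value of Abca4. Nectin4 (-0.82 ± 0.18, adjusted p = 0.0438), an adhesion protein, Ninl (-0.75 ± 0.13, adjusted p = 0.015), a protein of the centrosome, and Hecw2 (-0.62 ± 0.13, adjusted p = 0.0412), a ubiquitin ligase, followed, with Rcor3 (-0.51 ± 0.10, adjusted p = 0.0235), a corepressor. Muc15 held 3, 2, 2 and 1 counts at ZT18 and 11, 15, 9 and 11 at ZT6. The ratio of these sums was 5.96 in favour of ZT6 (95% exact interval 2.79 to 14.6, counting error only). Sat2, Armcx5, Haghl, Gm34256, 0610040B10Rik and E530011L22Rik complete the 24, with log2 fold changes from -0.34 to -1.42.

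The microglial genes and perineuronal net genes were not called. Ctss, a microglial protease, was 77.5, 81.9, 77.5 and 78.0 CPM at ZT18 and 78.4, 84.8, 74.9 and 82.9 CPM at ZT6 (-0.03 ± 0.09 SE, adjusted p = 0.953), and P2ry12, a microglial purine receptor, was at -0.13 ± 0.10 (adjusted p = 0.712). Of the 7 microglial markers none was called, and their level was 5.35 to 5.54 at ZT18 and 5.32 to 5.61 at ZT6. Acan, which encodes the aggrecan core of perineuronal nets, was 1.45, 2.68, 2.76 and 2.56 CPM at ZT18 and 1.25, 2.20, 2.76 and 2.20 CPM at ZT6 (0.16 ± 0.28, adjusted p = 0.909). Of 12 perineuronal net genes 11 were tested and none was called at either threshold, with Bcan at -0.10 ± 0.09 and Ptprz1 at -0.12 ± 0.12. A p that misses the threshold does not show that these genes are level.

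Synaptic and metabolic lists held no calls. Log2 fold changes of their most abundant members were -0.02 for Gria2 and -0.07 for Gria1 (glutamate receptors) and 0.06 for Camk2a and 0.05 for Dlg4 (postsynaptic scaffolds). They were -0.01 for Aldoc and 0.15 for Gapdh (glycolysis), 0.03 for Cst3 and 0.02 for Ctsb (proteases and inhibitors) and 0.05 for Ifi27 and -0.07 for Stat2 (interferon response). Of the postsynaptic scaffolds 13 of 16 were positive, with a median of 0.11, and of the glycolysis list 16 of 22, with a median of 0.06. Of the interferon response genes 11 of 14 were negative, with a median of -0.15. In 2 further lists nearly all members had small values of 1 sign. Of 77 ribosomal protein genes 76 were positive, with a median of 0.10 (Rplp1 0.14, Rpsa 0.04), and of 75 nuclear respiratory chain genes 74 were positive, with a median of 0.11 (Atp5a1 0.06, Atp5b 0.05). None was called. Both medians were 0.01 in the TPM, where the median of all genes was -0.06. The levels of the ribosomal list overlapped, at 7.74 to 8.05 at ZT18 and 7.65 to 7.89 at ZT6. Those of the respiratory chain list did too, at 6.97 to 7.23 and 6.96 to 7.02. In PLX5622 mice most members were negative, 61 ribosomal and 56 respiratory chain genes, with medians of -0.07 and -0.04. The mitochondrially encoded transcripts of control mice were not of 1 sign, with a median of 0.01 (mt-Co1 0.08, mt-Cytb 0.10).

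The mice on PLX5622 are other animals, killed at the same 2 ZTs, and give a second look at each of the 64 genes. In them 74 genes were called higher (0.419%) and 21 lower (0.119%) of 17664 tested. Of the 40 genes higher in control mice, 40 were also higher in PLX5622 mice by sign and 15 were called. Of the 24 lower genes, 23 had the same sign and 9 were called. The exception was Col4a1, at 26.1 CPM at ZT18 and 26.0 at ZT6 with PLX5622. Over all 17191 genes tested in both diets, 60.2% had the same sign. Those genes were not chosen for a difference as the 64 were, so the shares are of unlike sets. Per2 was 38.5, 38.3, 37.9 and 40.6 CPM at ZT18 and 17.99, 13.4, 20.8 and 19.2 CPM at ZT6 with PLX5622, so that both diets gave nearly the same rise (1.09 and 1.13 on the log2 scale). The values of Cry1 (0.55 and 0.65), Zbtb40 (1.03 and 1.24), Homer1 (0.72 and 0.75), Nr1d1 (-0.57 and -0.58), Insig1 (-0.53 and -0.50), Mvd (-0.48 and -0.53) and Cirbp (-0.53 and -0.71) were alike in control and PLX5622 mice, and each was called in both. Most of the 64 genes, which were chosen on control mice, had values of smaller size with PLX5622. This held for 28 of the 40 higher and 18 of the 24 lower genes. Median log2 fold changes were 0.54 in control and 0.40 in PLX5622 mice for the higher genes, and -0.60 and -0.42 for the lower ones.

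Immediate early genes mostly had smaller values with PLX5622. In those mice Arc was 99.2, 128, 63.3 and 184 CPM at ZT18 and 88.4, 40.1, 96.1 and 129 CPM at ZT6, so that the groups overlapped, and its log2 fold change was 0.43 against 2.01 in control mice. The median of the 25 immediate early genes was 0.15 with PLX5622 and 0.79 in control mice, 21 of the 25 had the smaller value with PLX5622, and none was called there. By edgeR's interaction test, the difference between the diets was 1.58 ± 0.66 (SE) for Arc, 0.72 ± 0.22 for Trib1 and 1.15 ± 0.38 for Nr4a1. Of the 25 genes, 6 were under 0.05 before adjustment, beside 4.43% of all genes. None passed the adjusted test of the difference. That test called 0 of 18274 genes by edgeR, and DESeq2 and limma on TPM also called 0. At an unadjusted p under 0.05 there were 810 genes by edgeR, 831 by DESeq2 and 452 by limma. By edgeR, the genes with the smallest unadjusted p were Col4a1 (-0.48), Ube2c (2.76), Polk (-0.68), Fcf1 (0.63) and Myh9 (-0.44), as control minus PLX5622 on the log2 scale, and the smallest adjusted p of all genes was 0.999952. A difference between the diets was thus not shown for any gene.

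**Figure D5:**
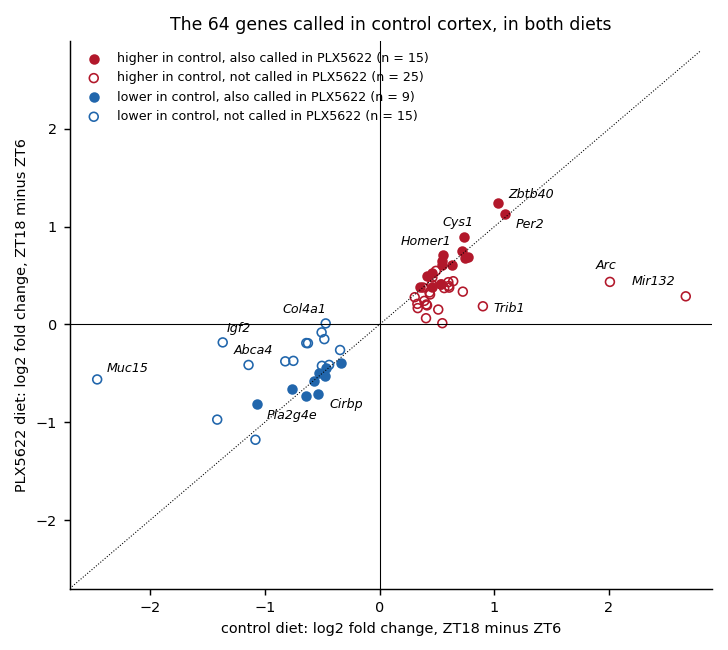
Log2 fold change, ZT18 minus ZT6, of the 64 genes called in control mice (x axis) against that in PLX5622 mice (y axis), with filled points called in both diets and the dotted line at equal values. All 40 higher genes lie above 0 on both axes, and Arc, Trib1 and Mir132 lie well below the line.

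Over the 6 ZTs of the control diet, the 40 higher genes had their highest mean at ZT18 (21 genes), ZT14 (12) or ZT2 (7), and their lowest at ZT6 (19) or ZT10 (17) with 4 exceptions. The 24 lower genes were highest at ZT6 (15) or ZT10 (7) with 2 exceptions, and lowest at ZT18 (15) or ZT2 (5) with 4 exceptions. The genes were chosen at 2 of these times, so that these counts describe them and test nothing. Within the higher genes the courses differed. Trib1 and Per2 were highest at ZT14, with 28.2 and 50.6 CPM. Homer1 stood at 224 ± 15.8 CPM at ZT2, as high as at ZT18 (212 ± 48.9), and was lowest at ZT10 (103 ± 12.6). Egr3 had 176 ± 5.90 CPM at ZT2 and 191.5 ± 34.4 at ZT18, and Arc 405 ± 89.8 at ZT14 and 325 ± 70.9 at ZT18. Insig1 was highest at ZT6 (113 ± 2.79) and lowest at ZT2 (68.1 ± 7.10), 4 h earlier.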

How the data were processed

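Cortical RNA of single mice was sequenced, and the authors deposited a table of whole-number counts per gene and a table of TPM. The count table is named as FPKM, but it holds only whole numbers whose totals differ between libraries, and it was read as counts. Per the labels, STAR and featureCounts were among the tools and mm10 was the build. The study's methods give STAR on GRCm38.p6 and Salmon for the TPM. The strand setting and annotation of the counts are not given in the sources used here. Genes were tested on the counts as deposited with edgeR 4.0.16 (quasi-likelihood, TMM, filterByExpr) in R 4.3.3, on all 23 control libraries with ZT as a factor. P-values were adjusted by Benjamini-Hochberg over all genes, with a threshold of 0.05. CPM are TMM-normalised, and SE was derived from the F statistic. The diets were compared by an interaction on 47 libraries. Alternatives used DESeq2 1.42.0, and limma 3.58.1 on log2(TPM + 1) for genes of mean TPM of at least 1, where a fold change understates that of low genes.

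The 12 largest rises and 12 largest falls among called genes with a mean of at least 1 CPM were named, with up to 4 called members per list, or 2 members where none was called, and 5 genes for the difference between diets. Marker lists are given by counts and ranges instead. Other called genes, and list members short of the threshold, were chosen after their values were seen. The comparison and the 38 lists were chosen with earlier results of these data known. Promoters and miRNAs are from RefSeq, GRCm38.p6, and gene positions from GENCODE. The edgeR fit of the control comparison was tested on simulated counts, and the other steps were not. Each library is a separate mouse. Intervals of summed counts are exact and cover counting error only. Some members of the lists are not reported here.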

Additional observations from a re-analysis of the deposited data

Results flagged for a closer look

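In 19 of 270 groups of 4 mice, 1 mouse lay far from the other 3 by Dixon's test at 95%, where chance alone gives about 1 in 20 groups. Mouse 3 at ZT6, which stood apart in tissue markers, was far below the other 3 mice of that time for Camk2a (4104 CPM against 5974 to 6255), Cst3 (1493 against 1852 to 1869), Aldoc (1313 against 1563 to 1614) and Kirrel2 (9.98 against 14.8 to 15.4), and far above them for Pmch (14.3 against 0.113 to 2.21). Without it, Kirrel2 was at 0.62 in place of 0.75 and was still called.

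Mouse 2 at ZT18 was low for mt-Co1 (27251 CPM against 32544 to 33522), Usp2 (50.7 against 55.4 to 56.2) and Pla2g4e (2.62 against 3.89 to 3.99), and high for Mfsd2a (29.4 against 23.2 to 23.9) and Ctss (81.9 against 77.4 to 78.0). Mouse 1 at ZT18 was low for Calr (239 against 317 to 327) and Acan (1.45 against 2.56 to 2.76), and mouse 4 at ZT18 was high for Sik1 (16.9 against 11.1 to 11.8).

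At ZT6, mouse 4 was high for Npas4 (25.4 CPM against 3.45 to 4.29) and low for Cys1 (5.53 against 7.24 to 7.47). Mouse 2 at ZT6 was low for Nfil3 (4.72 against 5.98 to 6.17) and Ifi27 (24.7 against 28.0 to 28.4). Mouse 1 at ZT6 was low for Tfrc (92.3 against 103 to 105) and high for Mir132 (0.396 against 0.0549 to 0.0564), the latter on 7 counts against 1 in each of the other 3.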

How the results depend on the processing

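The 64 genes kept their direction under every alternative that tested them, while their number moved. They were chosen on the same mice, so that the kept direction is largely set by that choice. With 40 higher and 24 lower in the reported fit, all 47 libraries gave 116 (74 and 42), DESeq2 155 (102 and 53), no filter on low counts 172 (96 and 76), only the 8 libraries of both ZTs 19 (11 and 8) and an adjusted p under 0.01 left 4 (3 and 1). Upper-quartile scaling gave 47 (21 and 26) and shifted the median of all genes to -0.03. limma called 8 (0 higher and 8 lower) with either pseudocount, and 6 of the 8 with a pseudocount of 1 were among the 64. Its median of all genes was -0.06 with a pseudocount of 1 and -0.07 with 0.1. Leaving out each library in turn gave 5 to 59 genes (3 to 36 higher, 2 to 23 lower). The cause was not tested. Between ZT18 and ZT6 the replicate numbers did not consistently pair the mice. The correlation of deviations was 0.503, -0.23, -0.201 and -0.0022 for numbers 1 to 4, and only number 1 of ZT18 correlated best with its own number. Other ZTs were not part of that check. There, number 4 had the highest Fos value at ZT22 (27.0 CPM against 6.60 to 7.31), ZT2 (33.7 against 10.4 to 12.7) and ZT10 (43.7 against 1.88 to 5.24). Number 4 was also highest for Fos at ZT6, and number 2 was at ZT18. Whether a replicate number stands for anything shared between ZTs was not tested. With the number as a replicate block 122 genes were called, 92 higher and 30 lower. The difference between diets had 0 calls under every alternative run.

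Genes near 0 changed sign. With limma the log2 fold change, at a pseudocount of 1 and 0.1, was -0.0297 and -0.0298 for Camk2a, -0.0559 and -0.0559 for Cst3, -0.0805 and -0.0805 for Atp5b, -0.0227 and -0.0227 for Dlg4, -0.0274 and -0.0275 for Atp5a1, -0.0331 and -0.0331 for Rpsa, -0.118 and -0.118 for Ctsb, -0.0296 and -0.0298 for Rbm3, -0.0414 and -0.042 for Dbp, and -0.00568 and -0.00856 for Ciart. Upper-quartile scaling gave -9.2e-05 for Cst3, -0.0161 for Ctsb and -0.0328 for Dbp. Dbp was -0.000739 with 47 libraries, -0.00339 with a mean of at least 1 CPM, -0.000332 without a filter and -0.00382 with 8 libraries. Without one library, values ran from -0.061 to 0.181 for Camk2a, -0.0393 to 0.078 for Cst3, -0.0691 to 0.0507 for Aldoc, -0.0466 to 0.121 for Dlg4, -0.0343 to 0.0943 for Rpsa, -0.0521 to 0.112 for Ctsb, -0.0532 to 0.0207 for Gria2, -0.0432 to 0.0457 for Dbp, -0.129 to 0.00655 for Usp2, -0.0598 to 0.000182 for Ctss, -0.0398 to 0.0173 for Bhlhe41, -0.129 to 0.00823 for Stat2 and -0.0223 to 0.342 for Acan. The differences in total counts (-70080 to 1239000) and mitochondrial percent (-0.141 to 0.769), an alternative chosen after seeing the data, changed sign too.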
